A study of Mus musculus with 4 samples.

Results

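The Notch2 pathway that directs B cells towards the marginal zone of the spleen was examined through 9 genes chosen by symbol, out of 55401 genes listed in the counts. They are the receptors Notch1 and Notch2, Adam10 and Ncstn of the machinery that cuts the receptors, the nuclear factors Rbpj, Maml1 and Maml2, and Dtx1 and Hes1, which Notch signals act on. RNA was sequenced from splenic B cells sorted as B220+, in 2 libraries of the genotype NSD1 B WT (WT below, Mb1-Cre+ NSD1+/+) and 2 of NSD1 B KO (KO below, Mb1-Cre+ NSD1fl/fl), all of the strain C57BL/6J. Both genotypes carry Mb1-Cre, in which Cre is expressed from the Cd79a locus and acts in the B lineage from its early stages. In KO it removes exons of Nsd1 that are flanked by loxP sites, and no treatment of the mice is given. Mice of 7 to 9 weeks and of both sexes were used, and the age and sex behind each library are not in the labels. Whether both libraries of a genotype came from different mice is not stated, so each p-value measures only the spread between these libraries, which may be technical. The comparison asks which of these genes differ in level when NSD1, a methyltransferase for lysine 36 of histone H3, is lost from B cells.

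Notch receptors are held at the cell surface until a ligand on a neighbouring cell pulls on them. The protease ADAM10 then cuts the receptor outside the membrane, and gamma-secretase, a complex that contains nicastrin (Ncstn), cuts it within the membrane. The freed intracellular part enters the nucleus, joins the DNA-binding protein RBPJ and a Mastermind-like coactivator, and turns on targets such as Hes1 and Dtx1. In the mouse spleen, NOTCH2 signalling through ADAM10, RBPJ and Mastermind-like proteins is required for marginal zone B cells, while Notch1 is best known for its part in T cell fate.

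The DNA-binding member fell and the pathway's receptor stayed just under the threshold used here, so the sequences upstream of these genes are shown beside those of the protease and the ubiquitin ligase gene that rose. Each run holds the 250 bases before the annotated start, read 5′ to 3′ on the strand of the gene, from RefSeq on GRCm38.p6. Capitals mark TGGGAA, the core of the sequence that RBPJ binds, or its reverse complement TTCCCA. The windows are chr5:53590096-53590345 (plus strand) for Rbpj, chr3:98013288-98013537 (plus strand) for Notch2, chr9:70678732-70678981 (plus strand) for Adam10, and chr5:120711670-120711919 (minus strand) for Dtx1.
Rbpj: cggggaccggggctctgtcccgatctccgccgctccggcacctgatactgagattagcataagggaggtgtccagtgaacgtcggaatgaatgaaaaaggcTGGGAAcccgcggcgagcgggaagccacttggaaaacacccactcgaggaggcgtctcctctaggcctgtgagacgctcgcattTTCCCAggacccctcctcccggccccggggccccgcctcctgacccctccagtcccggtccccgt
Notch2: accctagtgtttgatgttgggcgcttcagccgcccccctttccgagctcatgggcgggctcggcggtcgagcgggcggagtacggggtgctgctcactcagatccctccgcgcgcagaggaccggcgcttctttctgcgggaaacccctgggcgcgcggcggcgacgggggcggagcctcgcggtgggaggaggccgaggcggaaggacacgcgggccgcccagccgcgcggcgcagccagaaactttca
Adam10: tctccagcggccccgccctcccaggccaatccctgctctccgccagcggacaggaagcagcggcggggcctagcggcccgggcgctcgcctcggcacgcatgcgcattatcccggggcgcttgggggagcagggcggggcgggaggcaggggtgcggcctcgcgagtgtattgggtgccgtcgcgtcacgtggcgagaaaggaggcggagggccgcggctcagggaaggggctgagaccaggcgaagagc
Dtx1: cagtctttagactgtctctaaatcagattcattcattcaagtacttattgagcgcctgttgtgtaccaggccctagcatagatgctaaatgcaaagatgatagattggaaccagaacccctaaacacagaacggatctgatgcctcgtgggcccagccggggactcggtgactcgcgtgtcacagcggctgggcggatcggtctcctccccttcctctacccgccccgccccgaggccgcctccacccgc

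Of the 9 genes, 8 had such a window, and Hes1 had none in the table. The window of Rbpj held TGGGAA with its first base 149 bases upstream of the start and TTCCCA 65 bases upstream. A second window of Rbpj overlaps the first and held the same TTCCCA, 205 bases upstream of the later start. The second of 2 windows of Maml2 held TTCCCA 145 bases upstream. The other windows, among them those of Notch2, Adam10 and Dtx1, held neither form. Over all 32817 windows of the same length, 21.6% held the motif on either strand, against 3 of the 10 windows of these genes. A match is a description of the letters, not a binding site, and 250 bases do not cover distant enhancers.

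The counts on genes ranged from 6769118 to 7566834 per library. The targeted gene Nsd1 had 497 and 480 counts in WT and 284 and 280 in KO, a log2 fold change of -0.74 (standard error 0.11). Markers of other cells were also counted. Levels are given as CPM, counts-per-million of a library after TMM scaling, which corrects for differences in composition. The summed level of 3 erythroid markers (Hbb-bs, Hba-a1 and Alas2) was 23.4 to 25.7 CPM in WT and 1249 to 1502 CPM in KO, and 3 of 3 were higher. The 5 myeloid markers summed to 4523 to 4629 CPM in WT and 5643 to 5983 CPM in KO, with 3 higher and 2 lower and most of the sum from Lyz2. The 6 T cell markers summed to 52.5 to 53.2 CPM and 59.3 to 64.8 CPM, with 2 of 3 tested higher, 1 lower, and Cd4 and Cd8a at 0. Of 4 NK cell markers, Ncr1 and Gzma were at 0 in all libraries, 1 was higher and 1 lower, and the sum was 55.8 to 59.6 CPM in WT and 79.7 to 79.9 CPM in KO. Of 4 dendritic cell markers only Xcr1 was counted (0 CPM in WT, 3.86 to 5.003 CPM in KO), and Siglech, Zbtb46 and Flt3 were at 0. Plasma cell markers summed to 129 to 146 CPM in WT and 99.4 to 102 CPM in KO, 1 higher and 1 lower, with Sdc1 at 0. Of the stroma and endothelium markers Cdh5, Col1a1 and Pdgfrb were at 0, and Pecam1 alone was tested, below the threshold. All 6 B cell markers were counted, with 5 lower and Cd79b not past the threshold, where 41.1% of all tested genes were lower. Pax5 had 279 and 342 counts in WT and 30 and 31 in KO. The sum of the 6 was 12491 to 12718 CPM in WT and 11026 to 12024 CPM in KO, most of it from Cd79b. The part of these cell types in the results below was not tested. In sorted bulk samples, fewer cells of a type and less RNA per cell cannot be told apart.

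The threshold was a fold change of more than 1.2 in either direction together with an adjusted p under 0.05, by the quasi-likelihood test of edgeR, adjusted by Benjamini-Hochberg over all 11657 genes tested. All adjusted p-values below come from that test unless another tool is named. Of the 9 genes, 8 were tested. Maml2, Dtx1, Adam10, Ncstn and Hes1 were higher in KO, Rbpj was lower, and Notch2 and Maml1 were not past the threshold. Notch1, at too few counts for the filter, was not tested. Over all tested genes, 78.2% were past the threshold, 37.1% higher and 41.1% lower, so 6 of 8 is close to the share among all genes. The median log2 fold change of the 8 genes was 0.89, against -0.10 for all tested genes, and the median absolute value was 1.295 against 1.16. In 7 of the 8, the genotypes did not overlap, as was so in 88.1% of all tested genes.

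**Figure D1:**
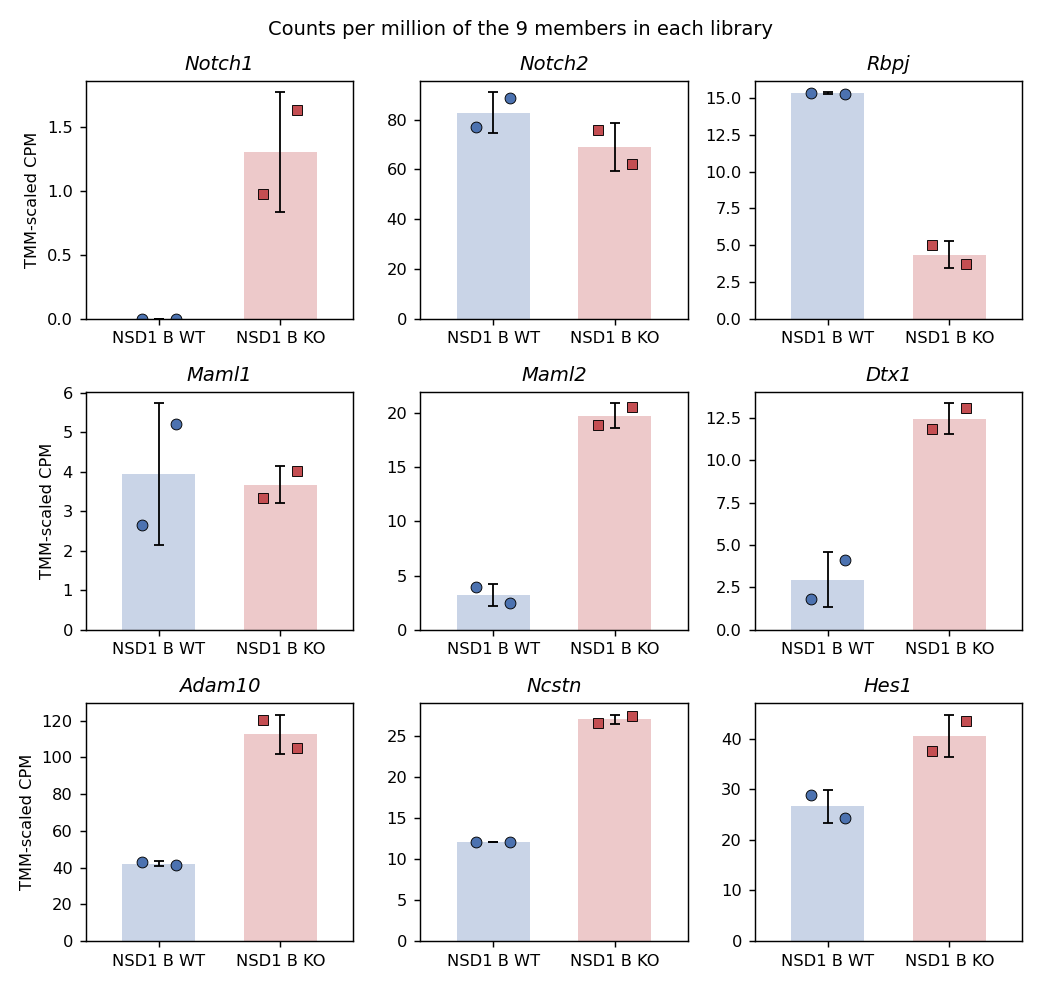
TMM-scaled CPM (vertical axis, from 0) of the 9 genes in the 2 WT libraries (circles) and the 2 KO libraries (squares), with bars for the mean and error bars for the SD. The genotypes overlap only for Maml1, and the largest relative gap with counts in both genotypes is that of Maml2, at 3.92 and 2.46 CPM against 18.9 and 20.5 CPM.

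Notch2 encodes the receptor on which marginal zone B cells depend, on chromosome 3 (ENSMUSG00000027878.11, 98013527 to 98150361, plus strand) in mm10 (GENCODE M21). It had 549 and 647 counts in the WT libraries and 546 and 418 in the KO libraries. Scaled by library, this was 76.8 and 88.5 CPM in WT and 75.9 and 62.1 CPM in KO. The lowest WT library and the highest KO library nearly met, so the genotypes were barely apart. The mean was 82.7 ± 8.26 CPM in WT and 69.0 ± 9.72 CPM in KO (SD, n = 2 libraries), and the log2 fold change was -0.26 (standard error 0.11, 95% interval -0.47 to -0.05). The adjusted p was 0.0236 by edgeR, and the level was 1.197 times as high in WT as in KO, just short of the fold change of 1.2 that the threshold asks for. Without WT replicate 2 the log2 fold change was -0.14 (edgeR adjusted p = 0.298) and without KO replicate 2 it was -0.12 (edgeR adjusted p = 0.292). After a correction of the counts for exon length and GC it was -0.06 (edgeR adjusted p = 0.63). Of the exon sequence of Notch2, 541 bases are shared with Gm42820, a transcript on the same strand that the annotation marks as still to be checked by experiment.

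Among 2217 tested genes of a similar level (mean log2 CPM within 1), the profiles over the 4 libraries closest to that of Notch2 were those of Arf6, Prickle3 and Parp2. Their Euclidean distances from Notch2, on the log2 CPM scale with each gene's mean subtracted, were 0.04, 0.04 and 0.05. With 4 libraries such a likeness is a description only.

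Notch1, the receptor best known from T cells, was at 0 counts in both WT libraries and had 7 and 11 counts in the KO libraries, or 0.973 and 1.64 CPM. It lies on chromosome 2 (ENSMUSG00000026923.15, 26457903 to 26516663, minus strand). Counts were thus seen in KO alone and stayed near the limit of detection. A count of 0 over the WT libraries allows up to 3 counts, or 0.208 CPM. Against that level Notch1 was at least 6.23-fold higher in KO. This limit takes the counts in KO as they stand, with no allowance for their counting error. Without 1 of the WT libraries this limit was 3.08 to 3.15. When every gene with at least 1 count was tested, Notch1 was past the threshold (edgeR adjusted p = 0.000485). Exons of Notch1 share 1068 and 414 bases with 2 transcripts on the opposite strand, 0610009E02Rik and Gm13568, and the strand setting of the counting is not given, so these few counts are uncertain. The T cell markers Cd3d and Cd3g, at 1.91 to 2.10 times their WT level, were also higher in KO, whereas Trac was lower, and their part in the counts of Notch1 was not tested. The cells were sorted as B220+ at high purity. The other receptors, Notch3 and Notch4, were at 0 in all 4 libraries.

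Adam10, on chromosome 9 (ENSMUSG00000054693.14, 70678997 to 70780229, plus strand), encodes the protease that makes the first cut of NOTCH2 after a ligand has bound. It had 307 and 301 counts in WT and 865 and 707 in KO. The lower KO library, at 105 CPM, was far above the higher WT library, at 43.0 CPM. Adam10 rose from 42.1 ± 1.26 CPM to 113 ± 10.7 CPM (mean ± SD, n = 2 libraries), a log2 fold change of 1.42 (standard error 0.10, edgeR adjusted p = 6.27e-17). Its close relative Adam17, a protease that can also cut Notch receptors, was at 40.2 ± 1.90 CPM and 35.9 ± 6.01 CPM (SD, n = 2 libraries), a log2 fold change of -0.16 (95% interval -0.43 to 0.11), and its libraries overlapped. Adam10 was past the threshold and Adam17 was not, and the difference between their changes was not tested.

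Tetraspanins escort ADAM10 to the surface. Tspan14 rose, from 64 and 75 counts to 167 and 174 (log2 fold change 1.35). Tspan5 had 20 and 18 counts in WT and 0 in both KO libraries, at least 12.2-fold lower. Tspan15, Tspan17 and Tspan33 were at 0 throughout. Taok3, a kinase that brings ADAM10 to the surface of B cells on their way to the marginal zone, had 184 and 198 counts in WT and 150 and 119 in KO, and it fell by 0.45 on the log2 scale (standard error 0.17, edgeR adjusted p = 0.0116). The call was lost by the Wald test of DESeq2, without WT replicate 2 and without KO replicate 2.

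Ncstn, on chromosome 1 (ENSMUSG00000003458.12, 172066013 to 172082795, minus strand), encodes nicastrin, the subunit of gamma-secretase that receives the cut receptor. It had 86 and 88 counts in WT and 192 and 185 in KO, and libraries of a genotype agreed closely. Ncstn rose from 12.0 ± 0.0019 CPM to 27.1 ± 0.578 CPM (mean ± SD, n = 2 libraries), a log2 fold change of 1.17 (standard error 0.18, edgeR adjusted p = 1.05e-07). An SD this small from 2 libraries is below counting error and says little about the spread. Exons of Ncstn share 195 bases with Copa on the opposite strand.

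Other subunits of gamma-secretase were counted beside Ncstn. Psen2, a presenilin of the kind that holds the active site, had 150 and 136 counts in WT and 129 and 137 in KO, with overlapping libraries and a log2 fold change of -0.05 (95% interval -0.41 to 0.31). Psenen, the small subunit that activates presenilin, was at 499 ± 11.3 CPM and 438 ± 33.3 CPM (SD, n = 2 libraries), a change of -0.19 on the log2 scale that did not reach the fold threshold. Aph1a, Aph1b and Aph1c, the 3 genes of the scaffold subunit, are each listed at 0 in all 4 libraries. Gamma-secretase is known to need an APH1 subunit, and how the counting came to 0 for all 3 was not tested.

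Rbpj encodes the DNA-binding protein through which all Notch receptors act. It was the only one among the 8 tested genes that was lower past the threshold. It lies on chromosome 5 (ENSMUSG00000039191.12, 53466152 to 53657362, plus strand), and it had 110 and 112 counts in WT and 36 and 25 in KO, so both KO libraries were far below both WT libraries. The level fell from 15.4 ± 0.0515 CPM to 4.36 ± 0.910 CPM (mean ± SD, n = 2 libraries), a log2 fold change of -1.81 (standard error 0.26, edgeR adjusted p = 3e-08). With each library left out in turn the log2 fold change lay between -2.04 and -1.61. The window upstream of Rbpj is the one shown above that holds the RBPJ core motif on both strands. Of all windows, 21.6% held the motif on either strand, and so did a window of Maml2, which rose. A link between the motif and the change was not tested.

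The Mastermind-like coactivators sit on the complex of RBPJ and the freed receptor. Maml2, on chromosome 9 (ENSMUSG00000031925.17, 13297957 to 13709388, plus strand), had 28 and 18 counts in WT and 136 and 138 in KO. It rose from 3.19 ± 1.03 CPM to 19.7 ± 1.14 CPM (mean ± SD, n = 2 libraries), a log2 fold change of 2.62 (standard error 0.27, edgeR adjusted p = 2.12e-12) and the largest fold change among the 8 tested genes. Maml1, on chromosome 11 (ENSMUSG00000050567.16, 50255634 to 50292311, minus strand), had 19 and 38 counts in WT and 24 and 27 in KO. Its WT libraries enclosed both KO libraries. The log2 fold change of Maml1 was -0.10 with a 95% interval of -0.86 to 0.66 (edgeR adjusted p = 0.811), which is too wide at this depth to show that its level was equal in the genotypes. Leaving out WT replicate 2, which has the higher count of the pair, turned the value to 0.48 (edgeR adjusted p = 0.484). Maml3 was at 0 in all 4 libraries. Exons of Maml1 share 135 bases with Gm26542 on the opposite strand, and those of Maml2 share 101 bases with Gm22643, a small RNA on the same strand.

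Dtx1 encodes deltex, a ubiquitin ligase that is a Notch target and is used as a mark of Notch2 signalling in marginal zone B cells. It lies on chromosome 5 (ENSMUSG00000029603.15, 120680202 to 120711927, minus strand). It had 13 and 30 counts in WT and 85 and 88 in KO. The WT libraries differed between themselves, at 1.82 and 4.10 CPM, and both stayed well below the KO libraries at 11.8 and 13.1 CPM. Dtx1 rose from 2.96 ± 1.62 CPM to 12.4 ± 0.897 CPM (mean ± SD, n = 2 libraries), a log2 fold change of 2.06 (standard error 0.31, edgeR adjusted p = 7.26e-08). The value was 1.62 without WT replicate 1 and 2.78 without WT replicate 2.

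Of the other deltex genes, Dtx2 and Dtx3 were at 0 in both WT libraries and rose. Dtx2 had 83 and 57 counts in KO, at least 48.5-fold higher, and Dtx3 had 74 and 91, at least 57.1-fold higher. Dtx3l, whose product works with PARP9 rather than with Notch, fell by 0.32 on the log2 scale (standard error 0.14, edgeR adjusted p = 0.0337), a call that held in 7 of 15 alternative settings. Dtx4 was at 0 throughout.

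Hes1, on chromosome 16 (ENSMUSG00000022528.8, 30064384 to 30067796, plus strand), encodes a repressor that is the best known direct target of Notch. It had 207 and 178 counts in WT and 271 and 293 in KO, and the genotypes did not overlap, at 29.0 CPM in the higher WT library and 37.7 CPM in the lower KO library. Hes1 rose from 26.7 ± 3.27 CPM to 40.6 ± 4.17 CPM (mean ± SD, n = 2 libraries), a log2 fold change of 0.61 (standard error 0.14, edgeR adjusted p = 0.000148). This was the smallest change among the 6 genes past the threshold, and it was not past the stricter limits of 0.5 for the absolute log2 value and 1e-05 for the adjusted p, which the other 5 passed and which 57.2% of all tested genes passed. After the correction for exon length and GC, its log2 fold change was 0.96.

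**Figure D2:**
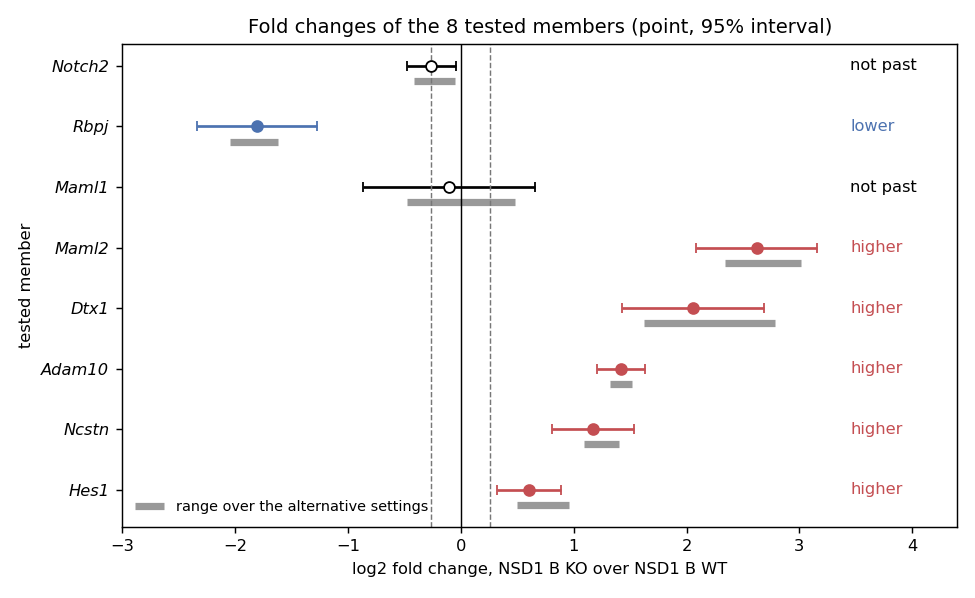
Log2 fold change of KO over WT (horizontal axis) for the 8 tested genes, with 95% intervals, dashed lines at a fold change of 1.2 in either direction, and grey bars for the range over the alternative settings. Rbpj, at -1.81, is the only gene lower past the threshold, and 5 genes from Hes1 at 0.61 to Maml2 at 2.62 are higher. Notch2, at -0.26, and Maml1, at -0.10, also lie on the lower side, and their intervals reach across the lower dashed line.

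Levels of different genes were compared only after division by exon length, as TMM-scaled CPM per kb of exon. In WT the order from high to low was Hes1 (13.1 CPM per kb), Adam10 (8.56), Notch2 (7.67), Ncstn (3.03), Rbpj (1.204), Maml1 (0.711), Dtx1 (0.562), Maml2 (0.484) and Notch1 (0). Neighbours in this order did not overlap between their 2 libraries, except Maml1 with Dtx1 and Dtx1 with Maml2. Adam10 and Notch2 were apart by 8.38 against 8.21 CPM per kb in their nearest libraries, which is no separation beyond the spread. In KO the order was Adam10 (22.9 CPM per kb), Hes1 (19.9), Ncstn (6.82), Notch2 (6.40), Maml2 (2.99), Dtx1 (2.36), Maml1 (0.665), Rbpj (0.342) and Notch1 (0.0916). Here Ncstn overlapped with Notch2, and Adam10 and Hes1 were apart by 21.39 against 21.38 CPM per kb in their nearest libraries, which is no separation beyond the spread. Rbpj moved from above both Mastermind-like genes to below them, and Maml2 from the level of Maml1 to above it. Exon length counts all annotated exons of a gene, so a gene whose B cell transcript uses few of them is set too low.

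**Figure D3:**
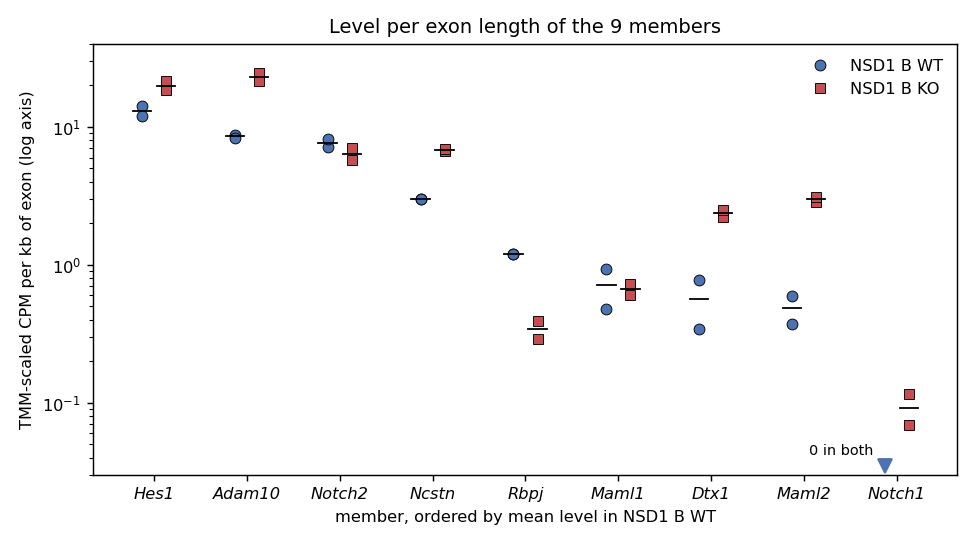
TMM-scaled CPM per kb of exon (log axis) of the 9 genes in each WT library (circles) and KO library (squares), with lines at the means and genes ordered by their mean in WT. Rbpj drops from 1.204 to 0.342 while Maml2 and Dtx1 rise past it, and Notch1 is at 0 in both WT libraries.

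The wider pathway was followed in a list of 77 genes that holds the 9 and their partners, of which 52 were tested. In KO 23 were higher and 18 lower, and 11 were not past the threshold. The 78.8% past the threshold is near the 78.2% of all tested genes, and the median log2 fold change was 0.19, against -0.10. Without the 9 genes, 18 of 44 were higher and 17 lower, with a median of 0.12. Of the 52, 4 were at 0 counts in both WT libraries and 6 in both KO libraries. Over all tested genes, 890 (7.63%) were at 0 in both WT libraries and 1313 (11.3%) in both KO libraries. How the counting came to these zeros is not known, so each limit on a fold change against 0 here, and each 0 in all libraries, holds only as far as the counts as deposited do. A further 20 genes were at 0 in all libraries, among them all 5 ligands (Dll1, Dll3, Dll4, Jag1 and Jag2). Of the genes described next, those not named by the rule given with the processing below were picked from the list after their values were seen.

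Genes that put sugars on the receptor moved in both directions. Pofut1 and Poglut1, which add the first fucose and glucose, rose, at log2 fold changes of 1.48 (standard error 0.25) and 2.16 (standard error 0.16). Mfng, a fringe enzyme that extends the fucose and tunes the response of NOTCH2 to Delta-like ligands, had 74 and 84 counts in WT and 0 in both KO libraries, at least 50.7-fold lower. Rfng went the same way from 16 and 15 counts, at least 9.95-fold lower, and Lfng had 1 count in all.

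Of the 9 genes for the nuclear complex and its coactivators, 8 were tested, with 5 higher and 2 lower. The acetyltransferases among them did not all move one way. Crebbp rose by 1.58 on the log2 scale (standard error 0.13) and Kat2b by 0.78 (standard error 0.13). Kat2a rose by 3.34 (standard error 0.50), from 2 and 6 counts in WT to 42 and 38 in KO. Ep300, the paralog of Crebbp, changed by -0.76 (standard error 0.15). Of 12 corepressors tested, 3 were higher, 5 lower and 4 not past the threshold. Spen, which competes with the receptor for RBPJ and restrains marginal zone fate, had 14 and 8 counts in WT and 62 and 43 in KO (log2 fold change 2.29, standard error 0.39, edgeR adjusted p = 7.76e-07). Tle1, a Groucho corepressor that HES proteins recruit, was at 0 in WT and had 126 and 112 counts in KO, at least 82.4-fold higher, whereas Tle3 and Tle4 fell by 1.13 and 1.67 on the log2 scale.

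Of the genes for turnover and trafficking, 12 were tested, with 6 higher and 4 lower. Numb, an inhibitor of Notch, had 83 and 113 counts in WT and 71 and 67 in KO and was not past the threshold (edgeR adjusted p = 0.0691). Itch and Nedd4, ubiquitin ligases that send receptors to the lysosome, fell by 0.34 and 0.97 on the log2 scale. Fbxw7, which marks the freed receptor for destruction, rose by 0.48 on the log2 scale (standard error 0.16), a call lost by DESeq2, by limma-voom and without KO replicate 1. Mib1 rose by 0.77, and its paralog Mib2 had 49 and 55 counts in WT and 0 in KO, at least 33.4-fold lower. Both act on ligands in the cell that sends the signal.

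Of 10 genes listed as Notch targets, 6 were tested, with 3 higher (Hes1, Ccnd1 and Il2ra) and 3 lower (Hes5, Myc and Cr2), a split close to the 37.1% higher and 41.1% lower of all tested genes. Hes5 had 22 and 23 counts in WT and 0 in KO, at least 14.4-fold lower, against the rise of its relative Hes1. Cr2, the gene of CD21 and both a target and a surface mark of marginal zone B cells, had 304 and 277 counts in WT and 17 and 26 in KO, a log2 fold change of -3.69 (standard error 0.22, edgeR adjusted p = 3.4e-20). Myc, a growth regulator, fell by 1.89 on the log2 scale (standard error 0.09) from 2027 and 1856 counts to 555 and 455. Il2ra, a target known from T cells, was at 0 in WT and had 93 and 89 counts in KO, at least 63.0-fold higher. Hey1, Hey2, Heyl and Nrarp were at 0 in all libraries.

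**Figure D4:**
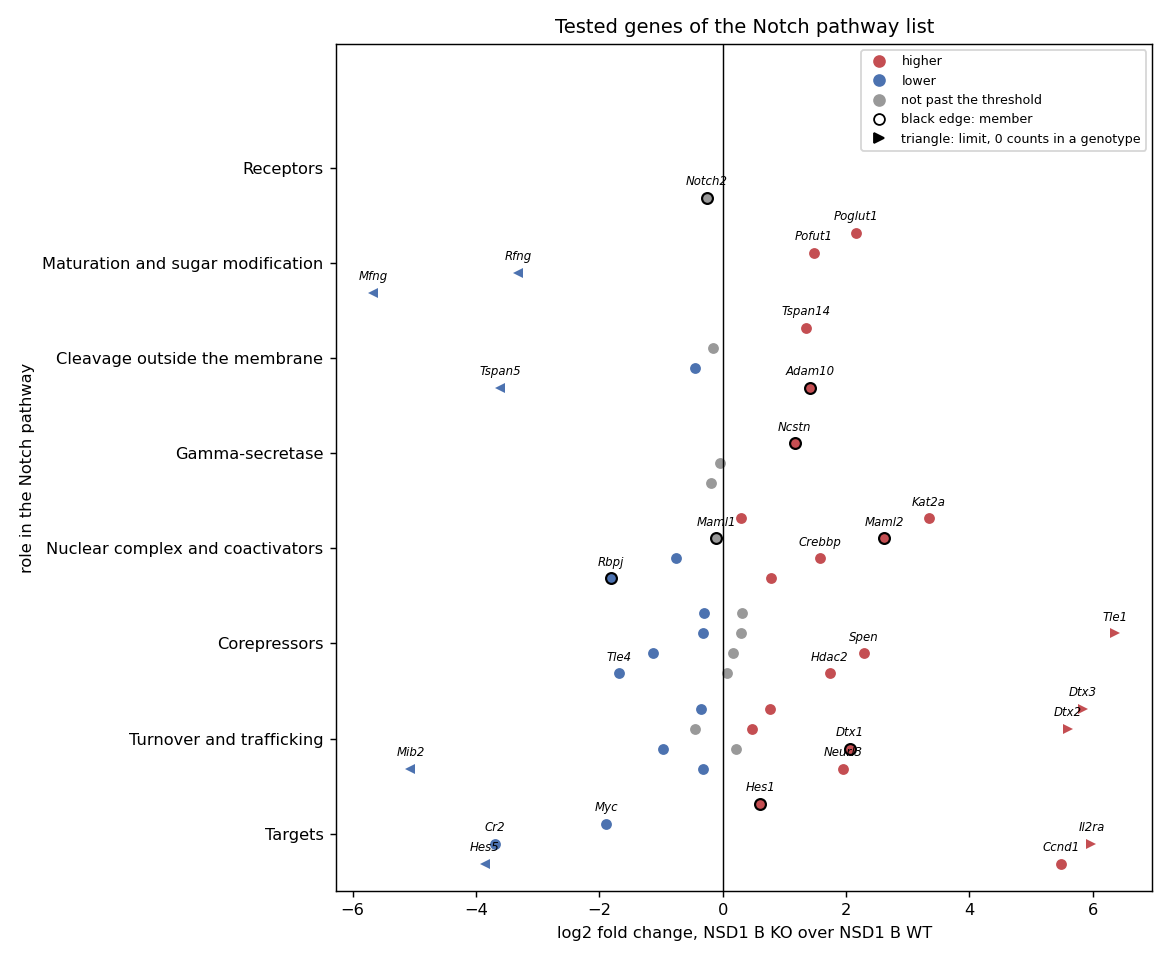
Log2 fold change of KO over WT (horizontal axis) for tested genes of the Notch pathway list, without those not reported here, in rows by role, with triangles at the limit for genes at 0 counts in a genotype. Higher and lower genes share most rows, as with Hes1 and Hes5 among the targets or Poglut1 and Mfng among the sugar-adding enzymes.

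Markers of the B cell subsets were counted beside the pathway. Of 10 genes of marginal zone B cells, 8 were tested, with 6 lower (Cr2, Cd1d1, Cd9, Myof, Fcrl5 and Plac8), 1 higher (Cd36) and Mzb1 not past the threshold, where 41.1% of all tested genes were lower and 78.2% past the threshold in either direction. Their summed level was 2280 to 2291 CPM in WT and 1599 to 1758 CPM in KO, and S1pr3 was at 0 in all libraries. Cd1d1 had 35 and 54 counts in WT and 0 in KO. Of 6 genes of follicular B cells, 3 were higher, among them Ighd and Bach2, Fcer2a was lower, and Cxcr5 and Ccr7 were not past the threshold. Fcer2a had 134 and 172 counts in WT and 0 in both KO libraries, at least 98.2-fold lower. The sum of the 6 was 1174 to 1185 CPM in WT and 1565 to 1596 CPM in KO. Dtx1 and Hes1 thus rose in libraries where Cr2 and Cd1d1 fell. By flow cytometry of the spleen, the paper reported fewer follicular B cells in KO, no such decrease of marginal zone B cells, and more B1 cells. Marker RNA is a different measure from gated cells. How much of the change in the 9 genes came with a shift between subsets was not tested.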

How the data were processed

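RNA-seq was made from B220+ splenic B cells, with 2 libraries for NSD1 B WT and 2 for NSD1 B KO. The deposited files hold raw counts of reads per gene, made by the authors against mm10. Per the labels, the submitters' processing notes name Bowtie2 and Cufflinks without versions. Which program counted the reads, and whether by strand, is not given in the sources used here. Entries that name no gene (44.3 to 44.6% of entries without a feature, 2.21 to 2.41% ambiguous, 11.2 to 13.2% not unique) were left out, and 6769118 to 7566834 counts per library remained. Intervals and limits from counts cover counting error only.

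Counts were tested with edgeR 4.0.16 in R 4.3.3 (glmQLFit and glmQLFTest, TMM scaling, filterByExpr at min.count 10 and min.total.count 15, Benjamini-Hochberg over 11657 genes). The threshold was a fold change of more than 1.2 with an adjusted p under 0.05. Genes at 0 counts in a genotype were set to a floor of 3 counts over its 2 libraries. Alternatives used DESeq2 1.42.0, limma 3.58.1 (voom), other scalings and filters, each library left out, a replicate block, and offsets by exon length and GC content. Replicate numbers did not pair the libraries, as the labels tie no number to a shared mouse or day. In data simulated for this comparison, 95% of 200 genes changed by a log2 value of 1 were recovered among 11259 genes.

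Positions, exon lengths and GC came from GENCODE M21, which matched 55141 of 55401 listed genes, and upstream sequences from RefSeq. The 9 genes, the pathway list and the marker lists were chosen with earlier results of these data known. Named by rule were the 9 genes, their paralogs and complex partners, Spen, Hes5, Hey1, Nrarp, Cr2, the marker genes, Nsd1, the 3 genes of the pathway list with the largest increase (Tle1 and Maml2 among them) and the 3 with the largest decrease (Cr2, Myc, Rbpj) among genes with mean log2 CPM no lower than 3, and the 3 genes nearest to Notch2 in profile. Other names were chosen after their values were seen. Some genes of these lists are counted but not reported here by name.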

Additional observations from a re-analysis of the deposited data

How the results depend on the processing

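Rbpj, Maml2, Dtx1, Adam10, Ncstn and Hes1 kept their direction and stayed past the threshold in all 15 alternative settings run. Leaving out each library in turn gave log2 fold changes of -2.04 to -1.61 for Rbpj, 2.34 to 3.02 for Maml2, 1.62 to 2.78 for Dtx1, 1.32 to 1.51 for Adam10, 1.15 to 1.195 for Ncstn and 0.50 to 0.76 for Hes1. Of the 9 genes, 6 or 7 were past the threshold in these settings, and 5 passed the stricter limits of 1e-05 for the adjusted p and 0.5 for the absolute log2 value. Notch2 passed the fold threshold with library size alone (-0.34), upper quartile scaling (-0.30), immunoglobulin genes left out (-0.27) and only genes at 1 CPM or more in each of the 4 libraries (-0.30). Leaving out each library gave -0.41 to -0.12, past the threshold without NSD1 B WT replicate 1 (-0.33) or NSD1 B KO replicate 1 (-0.41). Its adjusted p was 0.133 by DESeq2 and 0.136 by limma-voom, within 0.000564 to 0.63 over all settings, and the cause was not tested. Maml1 turned to 0.21 with the length and GC trend removed, to 0.25 with the same and the replicate block, and leaving out each library gave -0.47 to 0.48, above 0 without NSD1 B WT replicate 2 (0.48) or NSD1 B KO replicate 1 (0.03). The limit for Notch1 ranged from 3.08 to 7.88.

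With the filter of 1 CPM in all 4 libraries, which leaves 8334 genes and removes those at 0 in a genotype, 2855 genes were higher and 2991 lower, and 15 genes of the pathway list were higher. Each library left out gave 4168 to 4332 genes higher and 4439 to 4808 lower. Removing the length and GC trend moved the median log2 fold change of all genes from -0.10 to 0.07.

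With the replicate number as a block, 4254 genes were higher and 4706 lower, Notch2 was at -0.26, and the block changed no call among the 8 tested genes. Deviations of the libraries numbered 1 correlated at 0.0709 between genotypes, a value that those numbered 2 mirror, so the numbers were not taken as a pairing. With 2 libraries per genotype at this depth, genes such as Maml1 at under 40 counts had intervals too wide to show a small change.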
